A study of Homo sapiens with 46 samples.

Results

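Human mitochondria translate the mRNAs of their own genome with tRNAs that are encoded there, but every enzyme that charges or modifies these tRNAs is made from a nuclear gene. The mRNAs of 32 such genes were followed in HEK293T cells, an established line of human embryonic kidney origin, in which the translation of single mitochondrial mRNAs was silenced. The 32 genes were taken by name from a list of mitochondrial tRNA synthetases and tRNA modification enzymes, by a rule that holds no measured value, and all of them were found among the 58735 genes of the deposited count table. They were 16 aminoacyl-tRNA synthetases, 4 genes of the glutamine-forming amidotransferase and of the methionyl-tRNA formyltransferase, 9 genes of anticodon-loop modification, and 3 genes of other modification and of CCA addition. Cells labelled wild type received for 48 hours a chimera at 2 µM, that is a morpholino, an uncharged antisense oligomer, joined to pCox4, a yeast presequence that carries it into mitochondria. The 11 treatments were named for the mRNA that the morpholino covers: ND1, ND2, ND3, ND4L and ND5 of complex I, CYTB of complex III, COX1, COX2 and COX3 of complex IV, and ATP6 and ATP8 of complex V. Control cells received pCox4 in the buffer of the coupling reaction and no morpholino, so the presence of a morpholino and the silencing of an mRNA cannot be told apart in a comparison with the control. Poly(A)-enriched RNA was sequenced in 46 libraries, with 4 of each condition except COX2 and ND2, which had 3 each. Replicates 1 and 2 formed batch 1 and replicates 3 and 4 formed batch 2, and all 11 treatments were compared with the same 4 control libraries. The study calls its replicates biological, without saying what separated those of one batch, and the p-values measure the spread between these libraries.

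An aminoacyl-tRNA synthetase joins one amino acid to the tRNAs that read its codons. Mitochondria lack a glutaminyl-tRNA synthetase: EARS2 first charges the glutamine tRNA with glutamate, and a complex of QRSL1, GATB and GATC converts the glutamate to glutamine on the tRNA. MTFMT formylates the charged methionine tRNA, which then serves for initiation. Before it decodes, a mitochondrial tRNA receives its CCA end from TRNT1 and base modifications that hold its fold or tune its pairing. Those of the wobble base, made by MTO1, GTPBP3, TRMU and NSUN3, and those beside the anticodon, made by TRIT1, CDK5RAP1, TRMT5, YRDC and OSGEPL1, bear most directly on decoding. Inherited defects of many of these enzymes cause mitochondrial disease.

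Libraries held 18876395 to 100698084 counts on genes (median 23413171), and only COX3 replicate 4 exceeded 28121898. Markers of the HEK293T line were present, with a median of 412 CPM (counts scaled to a common library total) for VIM and 117 CPM for LIN28B, although PAX2 (7.30 CPM) and NEFM (0.966 CPM) were low, and the 10 markers of blood, endothelium, liver and cardiomyocytes stayed under 1 CPM in every library. Of the 11 targeted mRNAs, 3 fell in their own treatment (by 1.33 on the log2 scale for MT-CO1, 0.49 for MT-CO3 and 0.33 for MT-CYB), 3 rose (by 1.02 for MT-ND2, 0.80 for MT-ND3 and 0.79 for MT-ND1), and 5 did not pass the test. A morpholino that blocks translation need not lower its mRNA. In RNA from whole cultures, fewer cells of a kind and less RNA per cell cannot be told apart.

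All 32 genes were expressed well above the filter on low counts, the lowest count of any of them in any library being 123 (SARS2). In TPM, a level corrected for gene length, in the 4 control libraries, the highest was IARS2, which charges isoleucine tRNA, at 296 ± 2.94 TPM (mean ± SD, n = 4). It was followed by YARS2 (tyrosine) at 104 ± 6.15 TPM, by GTPBP3, a GTPase of wobble modification, at 92.4 ± 8.57 TPM, by YRDC, which makes the threonylcarbamoyl group, at 81.0 ± 4.52 TPM, and by TARS2 (threonine) at 68.1 ± 4.16 TPM. At the other end stood GATB, the amidotransferase subunit that binds the tRNA, at 6.11 ± 0.911 TPM, SARS2 (serine) at 8.36 ± 1.53 TPM, the methyltransferase NSUN3 at 9.25 ± 0.630 TPM, MTO1, the partner of GTPBP3 in wobble modification, at 9.84 ± 1.23 TPM, and FARS2 (phenylalanine) at 9.86 ± 0.116 TPM. In all, 12 genes had a control mean over 40 TPM and 5 had one under 10 TPM. Of the 31 pairs of neighbors in this order, 24 had control ranges that overlapped and 7 did not. Subunits of one enzyme differed in TPM: QRSL1, the catalytic subunit of the amidotransferase, stood at 25.8 ± 1.35 TPM and GATC, its small subunit, at 46.4 ± 3.23 TPM, against 6.11 TPM for GATB. TPM here used the deposited gene length, which for some genes is far above that of the longest transcript. For GATB these were 11757 and 6552 bases, for TRMU 9219 and 2933, for QRSL1 5453 and 4106, for GATC 4422 and 4244. The order, the counts at 40 and 10 TPM and the contrast of subunits depend on that length. They were not computed with transcript lengths.

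**Figure D1:**
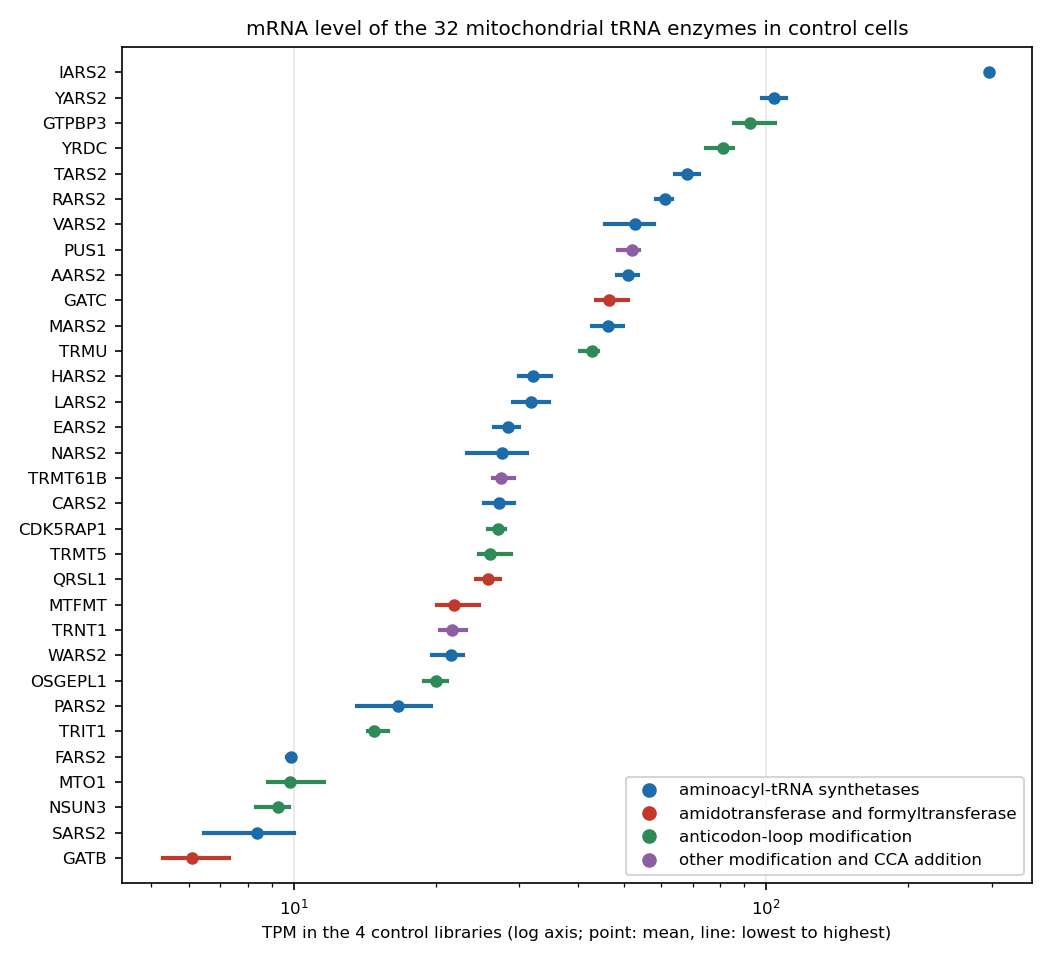
Control levels of the 32 genes in TPM on a log axis, with the mean of the 4 control libraries as a point and their lowest and highest values as a line, colored by role. IARS2 stood apart at 296 TPM, and the synthetases spread from there down to SARS2 at 8.36 TPM, with GATB below them at 6.11 TPM.

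The first question was whether the mRNAs of the charging and modifying enzymes change when one mitochondrial mRNA is silenced. None of the 32 did so in any of the 11 treatments at an adjusted p under 0.05 (edgeR's quasi-likelihood test with Benjamini-Hochberg adjustment over 20272 genes). Such calls were also rare among all genes: they made up 0.0888% of genes for ND1, 0.0247% for ND2, 0.00987% for ND3, 0.148% for ND4L, 0.158% for ND5, 0.548% for CYTB, 0.0543% for COX1, 0.469% for COX2, 0.306% for COX3, 0.00987% for ATP6 and 0.0641% for ATP8. DESeq2, run on the same libraries, called 2 of the genes after COX2 silencing (TARS2 and PUS1), 1 after ND4L silencing (TARS2), and 0 in the other 9 treatments. Its calls over the same 20272 genes made up 1.52% for COX2, 1.47% for ND4L, 0.774% for ND1, 0.0247% for ND2, 0.0148% for ND3, 0.503% for ND5, 1.68% for CYTB, 0.118% for COX1, 0.735% for COX3, 0.109% for ATP6 and 0.365% for ATP8. The log2 fold changes were small, with a median absolute value of 0.057 over the 352 estimates (32 genes in 11 treatments) and standard errors between 0.039 and 0.15. They reached from -0.32 (PARS2 after ND1 silencing) to 0.44 (SARS2 after COX2 silencing). In 350 of the 352 estimates the whole 95% interval lay within a 1.5-fold change in either direction, and the other 2 were of SARS2. Over all genes tested, many of them with wider spread, that share lay between 63.4% (COX2) and 66.9% (ND3) in a treatment. The variation between replicates behind these intervals was 5.50% of the level for the median gene of the 32 (biological coefficient of variation), against 8.66% for the median of all genes tested.

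At an unadjusted p under 0.05 there were 53 of the 352 estimates, from 20 of the genes, 44 of them above the control and 9 below it. That is 15.1% of the estimates, against 9.79% over all genes. By treatment these were 6 of 32 genes for ND1 (11.7% of all genes), 4 for ND2 (4.91%), 1 for ND3 (3.31%), 6 for ND4L (14.1%), 4 for ND5 (9.3%), 7 for CYTB (13.7%), 3 for COX1 (7.44%), 7 for COX2 (13.6%), 5 for COX3 (10.4%), 4 for ATP6 (9.08%) and 6 for ATP8 (10.2%). Over all genes the share of such estimates that lay above the control was lowest for ND2 (475 above and 520 below) and highest for COX1 (928 above and 580 below). The median log2 fold change of the 32 genes lay between 0.0019 (ND4L) and 0.058 (ATP8), while that of all genes tested lay between -0.0032 (ND1) and 0.0040 (COX1). Since all treatments share the 4 control libraries, an estimate that lies on one side of the control in many treatments is not repeated evidence. In this sense TARS2, FARS2, HARS2, IARS2, LARS2, GTPBP3 and YRDC were above the control in 11 of 11 treatments, and GATC was below it in 11 of 11. The share of all genes on one side in 11 of 11 was not counted, so these genes cannot be set against it.

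**Figure D2:**
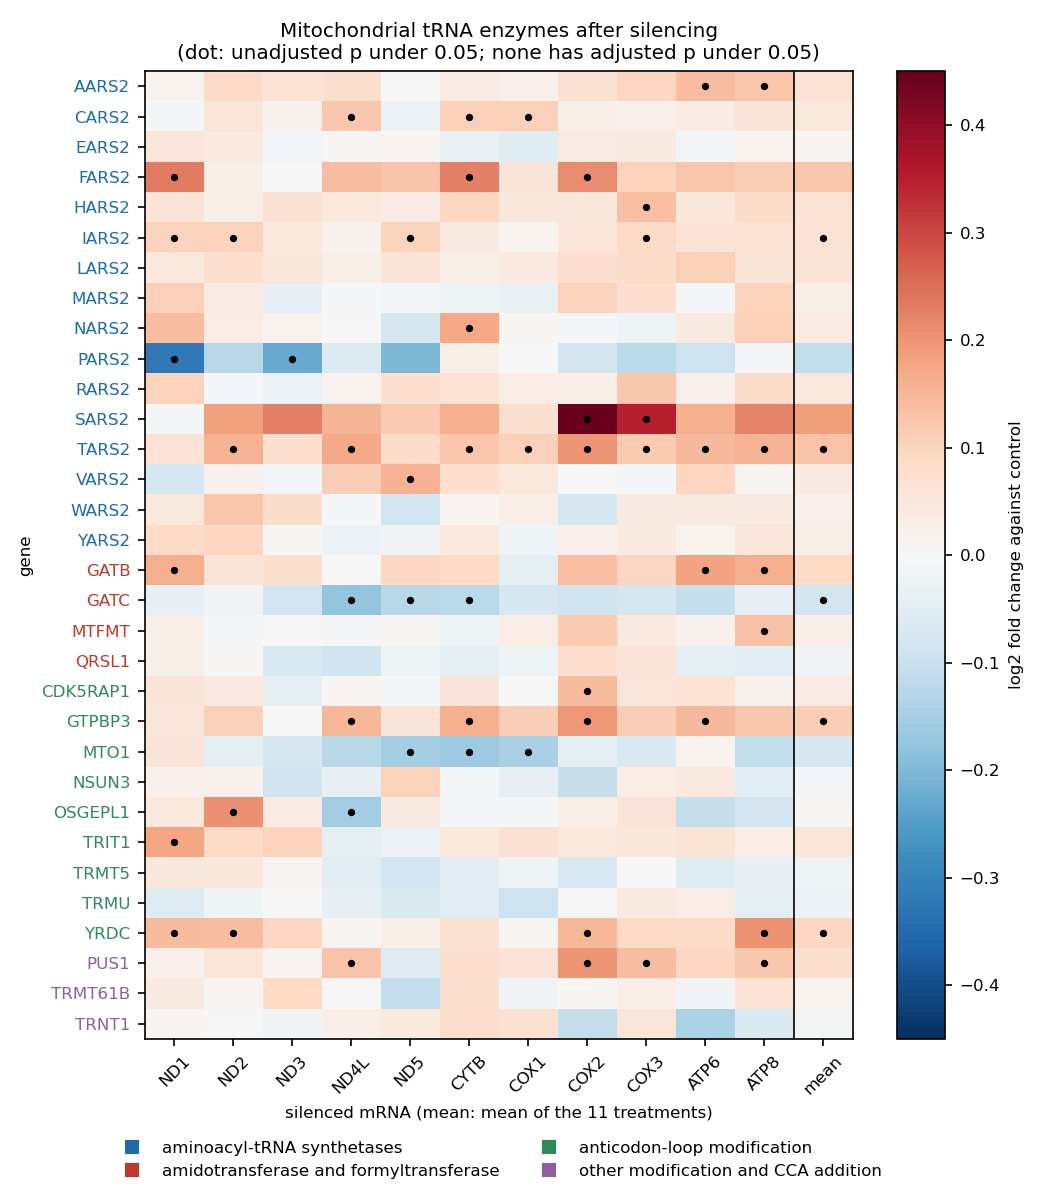
Log2 fold change against control of the 32 genes (rows, colored by role) in the 11 treatments and in their mean (last column), with a dot where the unadjusted p was under 0.05. The deepest colors are SARS2 after COX2 (0.44) and COX3 (0.35) silencing and PARS2 after ND1 silencing (-0.32), and no cell passed an adjusted p of 0.05 in edgeR.

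The mean of the 11 treatments against the control likewise gave 0 of 32 genes at an adjusted p under 0.05 in edgeR (0.261% of all genes), 5 at an unadjusted p under 0.05 (11.9% of all genes), and 1, TARS2, with DESeq2 (1.09% of all genes). The 5 were TARS2, GTPBP3, IARS2 and YRDC above the control and GATC below it. A test for any difference across the 12 conditions gave 0 (0.493% of all genes), with 7 at an unadjusted p under 0.05 (12.2% of all genes) and 1, PUS1, by DESeq2 (3% of all genes). A test among the 11 treatments, which does not compare them with the control although the fit holds the control libraries, gave 0 (0.306% of all genes), with 5 at an unadjusted p under 0.05 (10% of all genes) and again PUS1 by DESeq2 (1.76% of all genes).

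Among the 16 synthetases, 15 had a mean over the treatments above the control, with a median log2 fold change of 0.047, and PARS2 (proline) was the exception. Of all genes tested 49.4% were above the control in that mean, and the 16 estimates rest on the same control libraries. The gene nearest to the threshold was TARS2 (chr1:150487364-150507609, plus strand, GRCh38), which was singled out after its values were seen. TARS2 stood at 80.4, 78.4, 70.9 and 70.4 CPM in control replicates 1 to 4, and at 91.3, 82.1 and 83.5 CPM in the 3 COX2 libraries. Each COX2 library was above every control library, although the control libraries of batch 2 were the low ones. The log2 fold change of TARS2 was 0.20 ± 0.053 (SE) after COX2 silencing, with an adjusted p of 0.061 in edgeR, 0.046 in edgeR with the replicate number as a block in place of the batch, and 0.017 in DESeq2. After ND4L silencing TARS2 stood at 83.3, 92.2, 82.3 and 79.7 CPM, a log2 fold change of 0.17 ± 0.049 (SE) with an adjusted p of 0.096 in edgeR. Over all 42 treated libraries 38 were above the control mean of their batch, and the mean of the treatments was 0.13 ± 0.037 (SE) above the control on the log2 scale (edgeR, adjusted p = 0.11). Within batch 1 alone that mean was 0.069 and within batch 2 alone 0.19.

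SARS2, which charges the serine tRNAs, gave the largest differences and the widest errors (chr19:38915266-38930896, minus strand). It stood at 5.72, 6.88, 8.76 and 7.81 CPM in the control and at 8.69, 13.3 and 8.71 CPM in replicates 2, 3 and 4 of COX2. Of the COX2 libraries only replicate 3 was above the highest control library, so the groups overlapped. The log2 fold change of SARS2 after COX2 silencing was 0.44 ± 0.14 (SE), with an adjusted p of 0.14 in edgeR, and of 0.045 with the replicate number as a block. It was 0.27 without COX2 replicate 3 and 0.59 without COX2 replicate 4, and in the latter case the adjusted p was 0.035. After COX3 silencing it was 0.35 ± 0.13 (SE; edgeR, adjusted p = 0.29). Of the exon bases of SARS2, 46.2% are shared with AC011455.2, a gene annotated on the same strand, and 10.8% with MRPS12 on the opposite strand, so the count of SARS2 depends on how the authors assigned shared reads, which the sources used here do not give.

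PARS2 (chr1:54756898-54764514, minus strand) was the synthetase with the lowest estimate. It stood at 11.7, 12.4, 9.60 and 8.52 CPM in the control and at 10.6, 8.91, 7.67 and 6.65 CPM after ND1 silencing, each library below the control mean of its batch. The difference was -0.32 ± 0.10 (SE; edgeR, adjusted p = 0.17), and PARS2 was below the control in 10 of 11 treatments. VARS2, which charges valine tRNA, had the lowest p across the 12 conditions among the synthetases (edgeR, adjusted p = 0.25). It stood at 119.7, 104, 133 and 126 CPM in the control (chr6:30908242-30926459, plus strand), and its lowest, median and highest values over the 42 treated libraries were 98.4, 126 and 158 CPM. Its largest difference came after ND5 silencing, at 134, 118, 142 and 144 CPM, each library above the control mean of its batch. ND5 replicate 2 was below control replicate 1, which is of the same batch. The log2 fold change was 0.16 ± 0.057 (SE; edgeR, adjusted p = 0.31). VARS2 shares 22% of its exon bases with GTF2H4 on the same strand. The most abundant synthetase, IARS2, also had the lowest SE, and its estimates ran from 0.017 (COX1) to 0.10 (ND1). FARS2 reached 0.23 after ND1 and 0.23 after CYTB silencing, and NARS2 (asparagine) 0.17 after CYTB silencing, none of which passed the adjusted threshold. The estimates of AARS2 (alanine), CARS2 (cysteine), EARS2 (glutamate), HARS2 (histidine), LARS2 (leucine), MARS2 (methionine), RARS2 (arginine), WARS2 (tryptophan) and YARS2 lay between -0.086 (WARS2 after ND5 silencing) and 0.14 (AARS2 after ATP6 silencing).

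No subunit of the amidotransferase passed the adjusted threshold in any treatment. GATB was above the control in 9 of 11 treatments and GATC below it in 11 of 11, while QRSL1 was on either side. GATB (chr4:151670504-151761023, minus strand) stood at 20.3, 23.2, 16.9 and 17.3 CPM in the control and at 21.3, 24.1, 21.7 and 20.5 CPM after ATP6 silencing. The ranges overlapped, the control libraries of batch 1 reaching 23.2 CPM, and the log2 fold change was 0.18 ± 0.073 (SE; edgeR, adjusted p = 0.47). Within batch 1 it was 0.063 and within batch 2 0.30. GATC (chr12:120446438-120463749) stood at 55.9, 61.0, 52.3 and 52.8 CPM in the control and at 53.6, 55.7, 42.1 and 45.6 CPM after ND4L silencing, where each library was below the control mean of its batch. Its log2 fold change there was -0.18 ± 0.057 (SE; edgeR, adjusted p = 0.14). Reads of GATC may include those of SRSF9, which covers 39.1% of its exon bases from the opposite strand, if strand was not used in the counting. The formyltransferase MTFMT lay between -0.023 and 0.13, the highest value being that of ATP8.

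Genes of anticodon-loop modification had estimates in either direction, with a median close to 0 in the mean of the treatments (0.0049 on the log2 scale). GTPBP3 (chr19:17334920-17342735, plus strand) and MTO1 act together on the wobble uridine, and the former was above the control in 11 of 11 treatments and the latter below it in 9. GTPBP3 stood at 129, 113, 107 and 103 CPM in control replicates 1 to 4 and at 131, 137 and 124 CPM in the COX2 libraries. Each COX2 library was above both control libraries of its own batch, although across batches the groups overlapped. The log2 fold change was 0.19 ± 0.070 (SE; edgeR, adjusted p = 0.18). Over the 42 treated libraries GTPBP3 ranged from 96.0 to 141 CPM with a median of 122 CPM, and the mean of the treatments was 0.11 ± 0.049 (SE) above the control on the log2 scale (edgeR, adjusted p = 0.34). That mean was -0.022 within batch 1 and 0.25 within batch 2, so its direction rested on batch 2. MTO1 was lowest after CYTB silencing, at -0.16 ± 0.066 (SE; edgeR, adjusted p = 0.24). TRMU, which adds sulfur to the same wobble base, lay between -0.093 and 0.039 and passed an unadjusted p of 0.05 in no treatment.

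OSGEPL1, which joins the threonylcarbamoyl group to the adenosine beside the anticodon, had the lowest p across the 12 conditions in this role (edgeR, adjusted p = 0.24; chr2:189746660-189763227). It stood at 18.5, 19.6, 19.4 and 20.2 CPM in the control, at 22.3, 22.1 and 23.0 CPM after ND2 silencing and at 16.2, 18.4, 18.4 and 16.6 CPM after ND4L silencing. All ND2 libraries were above and all ND4L libraries below every control library, within a span of 16.2 to 23.0 CPM. The log2 fold changes were 0.20 ± 0.083 (SE) for ND2 (edgeR, adjusted p = 0.998) and -0.16 ± 0.078 (SE) for ND4L (edgeR, adjusted p = 0.35), and the mean over the treatments was 0.0049. YRDC, which supplies that group, stood at 41.2, 42.0, 36.9 and 39.7 CPM in the control and at 45.8, 50.3, 45.4 and 42.2 CPM after ATP8 silencing, with a log2 fold change of 0.20 ± 0.061 (SE; edgeR, adjusted p = 0.18). It shares 27.9% of its exon bases with C1orf122 on the opposite strand. The isopentenyltransferase TRIT1 reached 0.18 after ND1 silencing, and CDK5RAP1, which methylthiolates the same adenosine, 0.14 after COX2 silencing. The methyltransferases TRMT5 and NSUN3 lay between -0.10 and 0.10.

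In the last role PUS1, a pseudouridine synthase, had the lowest p of all 32 genes across the 12 conditions (edgeR, adjusted p = 0.13; DESeq2, adjusted p = 0.014). PUS1 (chr12:131929200-131945896, plus strand) stood at 83.5, 83.6, 80.9 and 74.3 CPM in the control and at 91.0, 99.2 and 87.9 CPM after COX2 silencing, each COX2 library above every control library. The log2 fold change was 0.20 ± 0.058 (SE; edgeR, adjusted p = 0.091; DESeq2, adjusted p = 0.038). After ND5 silencing PUS1 was at 76.6, 78.9, 77.2 and 77.3 CPM, which gave -0.057, the one treatment with an estimate below the control. Neither TRNT1, the CCA-adding enzyme, nor TRMT61B, which methylates adenosine in the T-loop arm, passed an unadjusted p of 0.05 in any treatment.

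**Figure D3:**
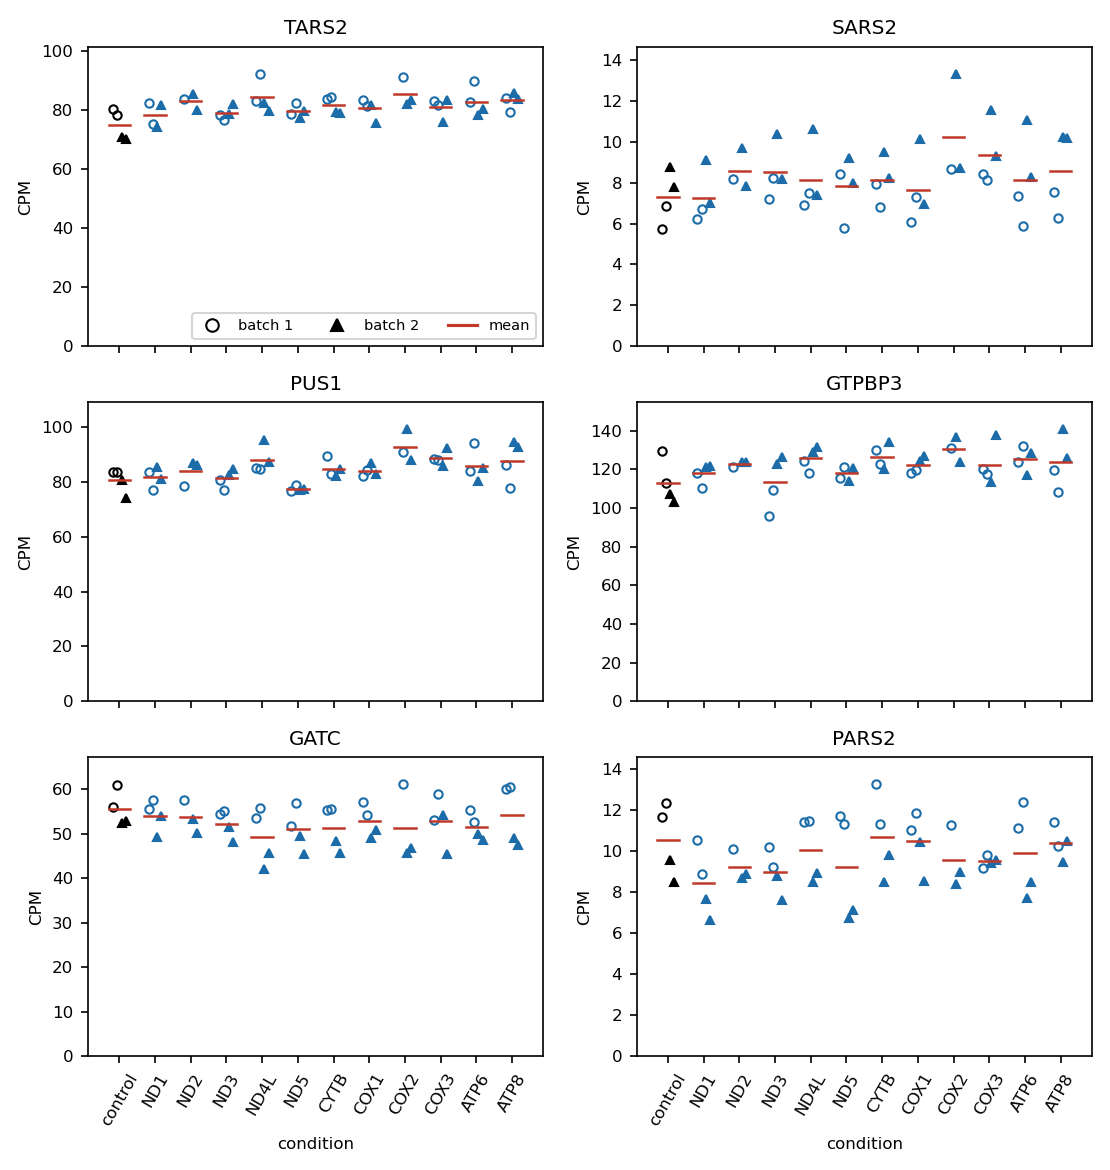
CPM in every library (axes from 0) for TARS2, SARS2, PUS1, GTPBP3, GATC and PARS2, with batch 1 as open circles, batch 2 as triangles, control in black and the mean of each condition as a red line. In batch 2 against batch 1 the log2 fold change was 0.34 for SARS2, -0.34 for PARS2 and -0.21 for GATC. Between the batches 57.1% of all genes passed an adjusted p of 0.05 (edgeR).

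Differences between the 2 batches were also tested in the same 46 libraries. This sets all libraries of one batch against all of the other, whereas a treatment sets 3 or 4 libraries against 4. The 2 kinds of comparison therefore differ in precision, and their counts cannot be set against each other. The batches were sets of replicates prepared on different days and from separate batches of reagents. In batch 2 against batch 1, 21 of the 32 genes passed an adjusted p of 0.05, 6 higher and 15 lower, where 57.1% of all genes did (29.2% higher and 27.9% lower). At an unadjusted p under 0.05 there were 23 of the 32 genes, against 61.1% of all genes. The genes higher in batch 2 were SARS2 (log2 fold change 0.34), VARS2 (0.32), CARS2 (0.18), TRIT1 (0.15), HARS2 (0.075) and CDK5RAP1 (0.068). The lowest were PARS2 (-0.34) and MTO1 (-0.29), and all 3 subunits of the amidotransferase were lower, at -0.23 for QRSL1, -0.22 for GATB and -0.21 for GATC (edgeR, adjusted p between 1.2e-10 and 2.0e-08). By role, 12 of 16 synthetases, 3 of 4 genes of the amidotransferase and formyltransferase group, 5 of 9 of anticodon-loop modification and 1 of the other 3 passed. The other 11 genes, among them IARS2, RARS2, FARS2 and NSUN3, had log2 fold changes between -0.067 (WARS2) and 0.067 (TRNT1).

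**Figure D4:**
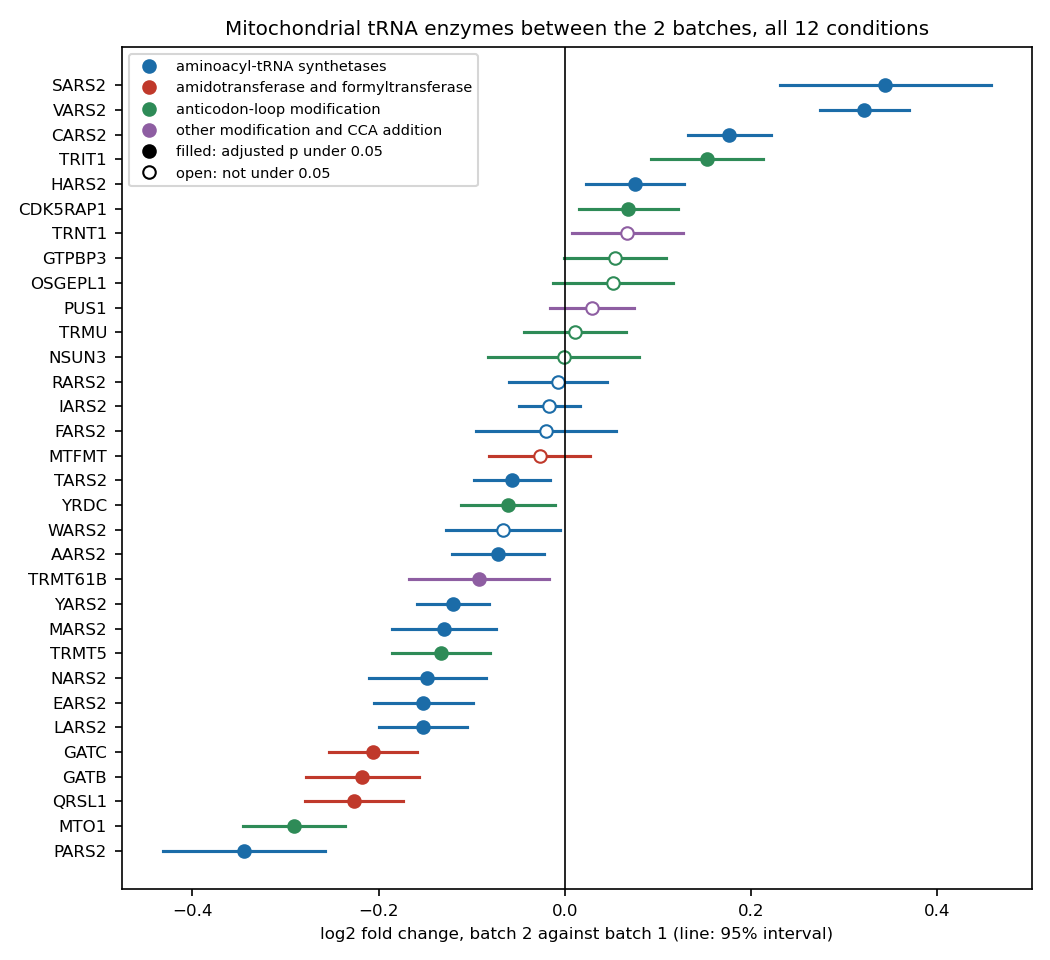
Log2 fold change of each gene in batch 2 against batch 1 over all 12 conditions, with 95% intervals, filled where the adjusted p was under 0.05 and colored by role. Of the 32 genes 21 are filled, from PARS2 at -0.34 to SARS2 at 0.34, and the 3 amidotransferase subunits sit side by side between -0.23 and -0.21.

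With condition and batch removed, the log2 CPM of some of the genes still varied together over the 46 libraries, as a description without a test. The median correlation over the 496 pairs was 0.054. The closest pair was VARS2 and GTPBP3 (r = 0.68), followed by GTPBP3 and PUS1 (r = 0.67), whereas CARS2 and QRSL1 (r = -0.64) and VARS2 and TRNT1 (r = -0.58) varied in opposition. These points share libraries and normalization, and base composition moved with the pattern: the longest transcripts of VARS2, GTPBP3 and PUS1 have a GC content of 59.3%, 60.4% and 59.2%, and those of QRSL1 and TRNT1 one of 40.5% and 37.5%. The part of GC content in the correlations was not tested. With each library's trend on GC content removed from the counts, 52 estimates passed an unadjusted p of 0.05 in the 11 treatments, 39 of them among the 53 above.

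Of 23 genes that process, transport or modify them (among them the nucleases that free tRNAs from the precursor, and GARS1 and KARS1, which serve both compartments), 22 were tested and 0 passed an adjusted p of 0.05 in edgeR in any treatment, with 38 of 242 estimates (15.7%) at an unadjusted p under 0.05 against 9.79% over all genes. DESeq2 called 4 of their 242 estimates, GARS1 after ATP8 silencing (log2 fold change 0.16), KARS1 (0.17) and the S-adenosylmethionine carrier SLC25A26 (0.32) after ND1 silencing, and TRMT112 (0.26) after ND4L silencing. Over all genes DESeq2 called 0.365% for ATP8, 0.774% for ND1 and 1.47% for ND4L. The cytosolic synthetases and their scaffold, which charge tRNAs for translation outside the mitochondria, included 3 of 21 genes that rose in some treatment by edgeR, with 4 of 231 estimates called (66, or 28.6%, at an unadjusted p under 0.05, against 9.79% over all genes). In the treatments of these calls edgeR called 0.0641% (ATP8), 0.469% (COX2) and 0.548% (CYTB) of all genes. DESeq2 called 15 estimates from 5 genes, those 3 and, after COX2 silencing, HARS1 (log2 fold change 0.18) and FARSA (0.20), a subunit of the cytosolic phenylalanine enzyme. Its calls over all genes made up between 0.0148% (ND3) and 1.68% (CYTB) of genes in a treatment. YARS1 (named YARS in the deposited table) stood at 146, 145, 158 and 150.5 CPM in the control and at 176, 174, 172 and 177 CPM after ATP8 silencing, where it rose by 0.22 ± 0.045 on the log2 scale (SE; edgeR, adjusted p = 0.019). It also rose by 0.22 ± 0.048 after COX2 silencing (SE; edgeR, adjusted p = 0.023). AARS1 rose after CYTB silencing from 129, 125, 122 and 115 CPM in the control to 146, 142, 142 and 151 CPM, by 0.24 ± 0.050 (SE; edgeR, adjusted p = 0.0087), and SARS1 by 0.19 ± 0.044 (SE; edgeR, adjusted p = 0.031). In the mean of the 11 treatments AARS1 rose by 0.17 and SARS1 by 0.14, where edgeR called 0.261% of all genes. All these calls were lost in each batch alone and without the batch term, that of YARS1 after COX2 silencing also with the GC trend removed, and that of SARS1 in the mean also with RLE scaling and with no filter on low counts. Over all the settings the estimates stayed above the control, between 0.18 and 0.27 for YARS1 after ATP8 silencing, 0.14 and 0.32 for YARS1 after COX2 silencing, 0.19 and 0.31 for AARS1 and 0.17 and 0.20 for SARS1 after CYTB silencing. With 1 library left out, YARS1 passed after ATP8 silencing in 2 of 8 cases (without replicate 3 of either group) and after COX2 silencing in 2 of 7 (without COX2 replicate 4 or control replicate 3). AARS1 passed after CYTB silencing in 4 of 8 cases, not without CYTB replicates 1 and 4 or control replicates 3 and 4, and SARS1 in 2 of 8 (without CYTB replicate 3 or control replicate 1). In the mean of the treatments AARS1 passed in 43 of 46 such cases, not without control replicate 2, 3 or 4, and SARS1 in 16 of 46.

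For 13 of the synthetases the cytosolic counterpart is a gene of its own with the matching name, and the values can be set side by side. FARS2, EARS2 and PARS2 were left out, as the cytosolic phenylalanine enzyme has separate subunits (FARSA and FARSB) and the glutamate and proline enzymes are joined in EPRS1. In the mean of the treatments the log2 fold change was 0.066 ± 0.044 for AARS2 and 0.17 ± 0.038 for AARS1, 0.027 ± 0.034 for YARS2 and 0.12 ± 0.034 for YARS1, and 0.13 ± 0.037 for TARS2 and 0.057 ± 0.033 for TARS1 (± SE). For SARS2 and SARS1 the values were 0.19 ± 0.10 and 0.14 ± 0.033, the mitochondrial gene having the higher estimate and the wider error. The cytosolic estimate was the higher one in 8 of the 13 pairs. The difference within pairs was not tested.

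**Figure D5:**
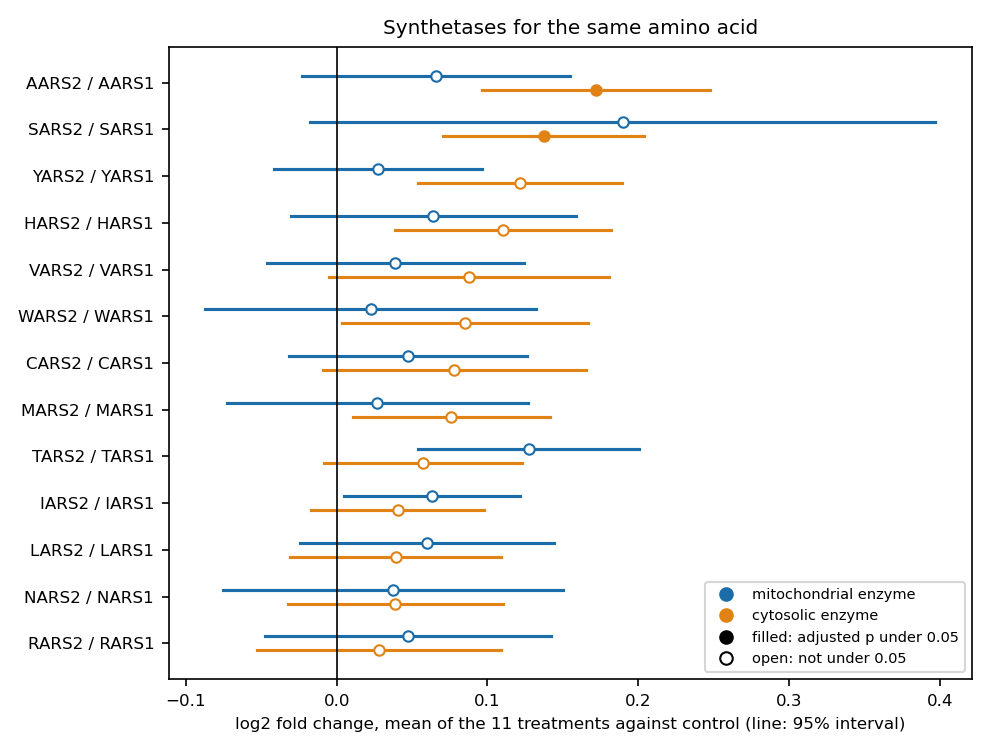
Log2 fold change in the mean of the 11 treatments for 13 pairs of mitochondrial (blue) and cytosolic (orange) synthetases of the same amino acid, with 95% intervals, filled where the adjusted p was under 0.05. AARS1 (0.17) and SARS1 (0.14) are filled, no mitochondrial enzyme is, and the intervals of a pair overlap in all 13 cases.

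Promoters were searched for the core of the element bound by C/EBP and ATF factors, through which several cytosolic synthetase genes are known to respond to amino acid shortage and other stress, and for motifs common in promoters of mitochondrial genes. RefSeq windows (GRCh38.p14, 250 bases before to 50 bases after the start) were matched for 26 of the 32 genes, and AARS2, VARS2, MTFMT, MTO1, TRIT1 and PUS1 had none in the table used. Motifs were searched on both strands. A gene was counted if any of its windows held the motif. CARS2, EARS2, FARS2, WARS2, GTPBP3 and CDK5RAP1 had more than 1 window, and so more bases in which to match. The core of the C/EBP-ATF element, TGATGCAA (reverse complement TTGCATCA), was found in 0 of the 26 genes of the mitochondrial enzymes with a window, in 6 of 17 such genes of the cytosolic synthetases (AARS1, CARS1, IARS1, MARS1, NARS1 and TARS1) and in 1.08% of the 27305 genes with a window. The ETS core CCGGAAG was found in 13 of the 26 genes of the mitochondrial enzymes (50%), among them TARS2, SARS2, PARS2, GATB, OSGEPL1 and YRDC, in 8 of 17 cytosolic ones (47.1%) and in 12.2% of all. The NRF1 motif was found in IARS2, MARS2 and PARS2 (11.5% of the genes of the mitochondrial enzymes with a window, 23.5% of the cytosolic ones, 6.98% of all), and the YY1 motif in YARS2 (3.85%, 17.6% of the cytosolic ones, 1.46% of all). No motif searched contains another one. Of the cytosolic genes called by edgeR (YARS1, AARS1 and SARS1), only AARS1 has a match to the C/EBP-ATF core. SARS1 has a window without it, and YARS1 is not among the matches. The other carriers of that core, CARS1, IARS1, MARS1, NARS1 and TARS1, were called in no treatment by either tool. A link between the core and the calls was not tested. A match is a description of the letters and no match says nothing of a factor. The following stretches show a cytosolic gene that was called and 3 of the mitochondrial enzymes, TARS2 as the one nearest to the threshold, MARS2 as one with both ETS and NRF1 matches and GATB as the lowest in level, with the motif in capitals. They lie at chr16:70289675-70289704 (AARS1, minus strand, where an exon of DDX19B is also annotated), chr1:150487188-150487307 (TARS2, plus strand), chr2:197705234-197705353 (MARS2, plus strand) and chr4:151761029-151761148 (GATB, minus strand).
AARS1: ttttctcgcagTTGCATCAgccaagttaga
TARS2: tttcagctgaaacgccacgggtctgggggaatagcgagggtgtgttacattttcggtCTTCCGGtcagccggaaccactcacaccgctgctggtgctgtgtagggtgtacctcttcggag
MARS2: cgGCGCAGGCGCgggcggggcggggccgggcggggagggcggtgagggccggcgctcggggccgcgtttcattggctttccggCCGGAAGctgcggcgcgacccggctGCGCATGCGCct
GATB: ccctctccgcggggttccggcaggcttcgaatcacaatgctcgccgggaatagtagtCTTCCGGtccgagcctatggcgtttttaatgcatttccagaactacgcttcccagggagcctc
Counted in bases from the RefSeq start, the element begins at -187 in AARS1, and the ETS core at -174 in TARS2, -52 in MARS2 and -84 in GATB. MARS2 has the NRF1 letters on either side of the ETS core, while TARS2 and GATB have a single match each.

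Of the 32 genes, 12 start at most 867 bases from the start of a protein-coding gene on the opposite strand, and 11 of these neighbors were tested. Of the 121 estimates of these neighbors in the treatments edgeR called 0, with 14 (11.6%) at an unadjusted p under 0.05 against 9.79% over all genes. DESeq2 called 1 (HARS1 after COX2 silencing, 0.18), where it called 1.52% of all genes. HARS2 and HARS1 (HARS in the table), the mitochondrial and cytosolic histidine enzymes, start head to head and share exon bases (11.7% of those of HARS2). Their log2 fold changes in the mean of the treatments were 0.064 ± 0.047 and 0.11 ± 0.036 (SE). The start of SARS2 overlaps that of MRPS12, a mitochondrial ribosomal protein gene, and the 2 stood at 0.19 ± 0.10 and 0.033 ± 0.048 (SE). Between batches 5 of the 11 pairs had estimates of opposite sign, among them SARS2 (0.34) and MRPS12 (-0.12). In all, 19 of the 32 genes share exon bases with another annotated gene, so their counts depend on rules of assignment that are not given in the sources used here.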

How the data were processed

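The authors deposited one table of raw read counts per gene for 46 libraries of poly(A)-enriched RNA, with gene coordinates and lengths, and its identifiers and positions match GENCODE 29 on GRCh38 for 32 of 32 genes. The submitters' processing notes name GRCh38.p12, R 4.3.0, DESeq2 1.40.2 and limma 3.56.2, and the aligner, the counter and the use of strand are not given in the sources used here. The counts were fitted here with edgeR 4.0.16 (R 4.3.3, limma 3.58.1): TMM scaling, filterByExpr with a minimum count of 10, condition and batch as terms, all 46 libraries in one fit, and two-sided quasi-likelihood tests adjusted by Benjamini-Hochberg over the 20272 genes kept. CPM used TMM-scaled totals, TPM the deposited lengths, and log2 CPM a prior count of 2. Intervals are 95% intervals. The scripts were tested on simulated data. The rule for the 32 genes uses their names only, but the members and lists were proposed with earlier results of these data known. Same-numbered control and treated libraries deviated together (mean r = 0.19 over 42 pairs, lowest 0.12), but not once the batch was removed (mean r = -0.016). In each role the text names the gene with the lowest p across conditions and that with the largest change in the mean of the treatments, and TARS2 and other genes were named after their values were seen. Alternatives were DESeq2 1.42.0, RLE scaling, no filter, no batch term, the replicate number as a block, each batch alone, only the 2 groups compared, each library left out and, chosen after seeing the data, removal of a trend on GC content.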

Additional observations from a re-analysis of the deposited data

How the results depend on the processing

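Over 55 alternatives (46 of them leaving out 1 library), the count of genes called among the 32 moved as follows. After COX2 silencing it was 0, and became 2 with DESeq2, 2 with the replicate block (TARS2, adjusted p = 0.046, and SARS2, adjusted p = 0.045, in edgeR), 1 with only the 2 groups compared (TARS2), and between 0 and 2 with 1 library left out (2 without COX2 replicate 4, PUS1 and SARS2, and 1 without control replicate 1, TARS2). After CYTB silencing it was between 0 and 1 with 1 library left out (GTPBP3 without control replicate 1). DESeq2 called 1 after ND4L silencing, 1 in the mean of the treatments, 1 across conditions and 1 among treatments, and with the GC trend removed there was 1 across conditions and 1 among treatments (VARS2 in both). The count between batches, 21, lay between 16 and 22 under the other settings and between 20 and 23 with 1 library left out. Over all genes the calls moved further under the 9 settings other than leaving out 1 library (the reported count in parentheses): between 0 and 90 for ATP6 (2), between 1 and 250 for ATP8 (13), between 7 and 96 for COX1 (11), between 1 and 335 for COX2 (95), between 2 and 254 for COX3 (62), between 4 and 462 for CYTB (111), between 2 and 290 for ND1 (18), between 2 and 33 for ND2 (5), between 0 and 17 for ND3 (2), between 2 and 297 for ND4L (30), between 6 and 133 for ND5 (32), between 1 and 320 for the mean (53), between 23 and 1049 across conditions (100) and between 22 and 784 among treatments (62). The cause was not tested.

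In the mean of the treatments, VARS2 (-0.024) and GTPBP3 (-0.022) turned negative in batch 1 alone, and OSGEPL1 (-0.0017) in batch 2 alone, with a range of -0.011 to 0.015 when 1 library was left out. The median of the 32 genes moved from 0.058 to 0.031 in batch 1 alone and 0.084 in batch 2 alone for ATP8, and from 0.014 to 0.049 in batch 2 alone for COX1. It turned negative in batch 1 alone for COX1 (-0.018), ND3 (-0.025) and ND5 (-0.019), with RLE scaling (-0.0024) and in batch 2 alone (-0.0012) for ND4L, and with the GC trend removed for ND5 (-0.00054). For ATP6 it fell from 0.041 to 0.012 in batch 1 alone. The replicate block changed no other call among the 32 genes. Their lowest count was 123 (SARS2), and how far depth and the number of libraries each set the intervals was not tested.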
